A study of Mus musculus with 6 samples.

Results

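Ephrins, semaphorins, slits and netrins, with their Eph, plexin, neuropilin, Robo and Unc5 receptors, were examined in mouse embryonic fibroblasts (MEFs), either wild type for H2AX (genotype H2AX. WT) or of the genotype H2A.X Knockout. The genes were taken from a list of 50 ligands and receptors of these families, and a gene was measured if the array annotation gave a probe set its symbol alone. By this rule 49 of the 50 were measured among 19938 genes in all, and Ephb2 was not analysed here. The cells came from mice of the stated genotype, grew in the same serum-containing medium and received no treatment, with 3 Affymetrix arrays of each genotype. No source used here gives the sex, age or number of the embryos, or says whether each genotype was 1 culture. A legend of the study calls the arrays of a genotype independent replicates without saying what was replicated, so that p-values reflect array-to-array spread. In bulk RNA of this kind, fewer cells of a type and less RNA per cell cannot be told apart.

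Guidance cues were named for steering growing axons, but fibroblasts also use them to repel, adhere to and move around each other. Ephrins are membrane-bound ligands, the A class held by a lipid anchor and the B class by a transmembrane segment, and Eph receptors are tyrosine kinases that signal on contact between cells. Semaphorins, some secreted and others anchored in the membrane, act through plexins, for which neuropilins serve as co-receptors of the secreted class 3. Slits signal through Robo receptors, and netrin-1 through Dcc, neogenin and the Unc5 family.

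The largest changes were in semaphorins and in the receptors of semaphorins and netrins. Sema6d was at least 10.05-fold lower in H2AX knockout cells, where its signal was under a level of low signal taken from olfactory receptor genes, and Sema7a was 10.8-fold lower. The netrin receptor Unc5b was 6.42-fold lower while its relative Unc5c was 4.28-fold higher, and the semaphorin receptors Plxna4, Nrp1, Plxna2 and Plxnd1 all fell. The slits Slit3 and Slit2 and the A-class ephrins Efna2, Efna5 and Efna1 were higher. Of the 49 genes, 12 rose, 18 fell and 19 missed an adjusted p under 0.05 (limma, SE denoting its standard error, adjusted over all 19938 genes). The 30 genes that passed are 61.2% of those measured, and over all genes 33.4% passed, with 18.4% higher and 15% lower. Past a fold-change of 2, 4 were higher and 10 were lower, together 28.6% of the 49 against 5.3% of all genes (2.12% higher and 3.18% lower). The median log2 fold change (knockout minus wild type, log2FC) of the 49 genes was -0.06 and that of all genes was 0.02. The median size of the log2FC, without its sign, was 0.55 for the 49 genes and 0.13 for all genes. The list was chosen with earlier results of these data known. These and later comparisons with all genes are therefore a description, which the choice itself may have shaped. Of 33 measured guidance ligands and receptors outside the list, 33.3% passed the test, and 3.03% passed a fold-change of 2 as well.

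**Figure D1:**
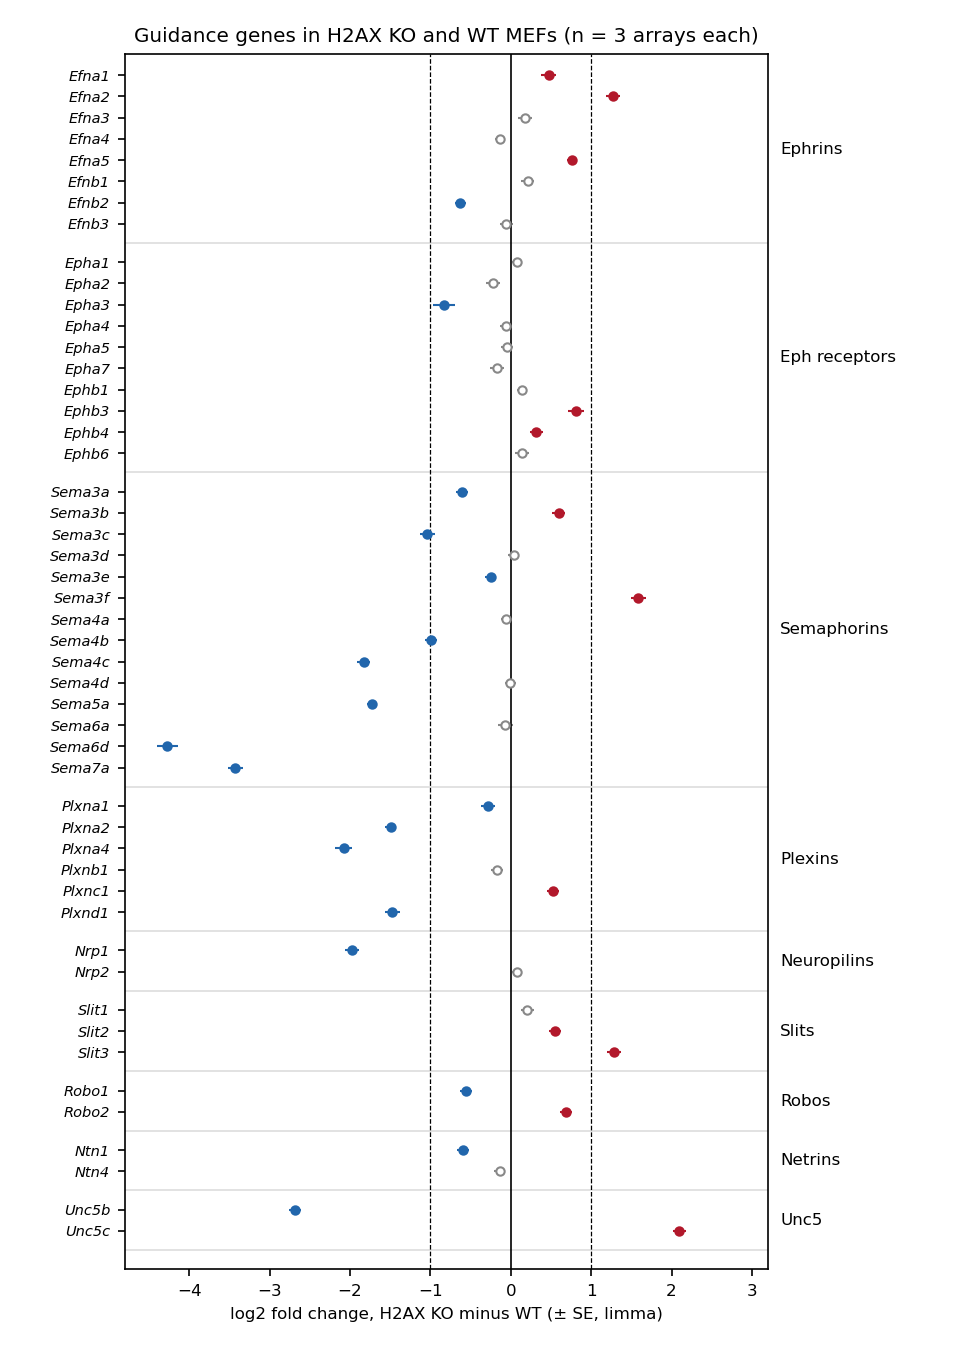
Knockout (KO) against wild-type (WT) log2FC on the x axis for the 49 measured guidance genes, by family, with the SE (standard error from limma) as bars. Filled points passed the test, red for higher and blue for lower, open points did not, and dashed lines mark a fold-change of 2. Blue points past the left line are 5 semaphorins, 3 plexins, Nrp1 and Unc5b, and red points past the right line are Efna2, Sema3f, Slit3 and Unc5c.

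The arrays fell by genotype, with correlations over all probe sets of 0.9933 to 0.9968 within a genotype and 0.9693 to 0.9743 between genotypes. H2ax had log2 values of 8.96 to 9.18 on the wild-type arrays and 7.67 to 7.77 on the knockout arrays, a log2FC of -1.34 (SE 0.07, adjusted p = 5.8e-07, limma). No source used here says whether its probes fall inside the deletion. The Y-linked gene Eif2s3y, named after its values were seen, had means of 8.09 in wild-type and 4.05 in knockout cells. Its log2FC was -4.04 (limma adjusted p = 9.7e-10), so that Y-linked signal ran with genotype. The knockout and other differences between the cultures, a possible difference in sex among them, therefore cannot be told apart. As a guide to low signal, 1027 olfactory receptor genes were used, and 95% of their log2 values on the 6 arrays lay under 5.80. Of the 49 guidance genes, 38 had a mean above this level in at least 1 genotype and 27 of them passed the test, as did 50.6% of all genes above the level. A fold-change of 2 was passed as well by 36.8% of the 38 and by 8.73% of all genes above the level. The median size of the log2FC was 0.62 for the 38 and 0.24 for all genes above the level. Of the 11 genes under it in both genotypes, 3 passed, namely Epha3, Plxnc1 and Robo1, and of all genes under it 7.84% passed. For listed genes past a fold-change of 2 with the mean of 1 genotype under this level, a bound is given, in which the level takes the place of that mean. Since a gene that is high in 1 genotype enters by that genotype, these shares are a description.

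Among the semaphorins, 8 of 14 fell in the knockout, 2 rose and 4 missed the threshold. The decreases were largest in the membrane-anchored classes, where 5 of the 8 listed genes were lower. The other 3 gave log2FC values between -0.07 and -0.01, and 2 of these lay under the olfactory receptor level in both genotypes. Of the membrane-anchored semaphorins outside the 50, Sema6c and Sema5b were higher, at log2FC values of 0.37 and 0.23 (adjusted p = 0.0026 and 0.0255, limma), and Sema4f, Sema4g and Sema6b did not pass. Sema6d, a transmembrane semaphorin that binds plexin-A1, had log2 values of 9.08, 9.10 and 9.21 on wild-type arrays and 4.56, 4.86 and 5.16 on knockout arrays. The 3 knockout values lay under the olfactory receptor level, and the log2FC of the measured values was -4.27 (SE 0.13, adjusted p = 9.0e-09, limma), a measured fold of 19.3 and a bound of at least 10.05-fold. Sema7a, a lipid-anchored semaphorin that binds plexin-C1 and integrins, gave 9.82, 9.92 and 9.86 in wild-type and 6.28, 6.37 and 6.65 in knockout cells. It fell by 3.43 (SE 0.09, adjusted p = 5.3e-09), with no overlap between the genotypes and with knockout values above the olfactory receptor level.

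Sema4c, a transmembrane ligand of plexin-B2, had log2 values of 9.63, 9.63 and 9.84 in wild-type cells and 7.81, 7.96 and 7.85 in knockout cells (log2FC -1.83, SE 0.08, adjusted p = 9.2e-08, limma). Sema5a, which carries thrombospondin repeats outside the cell, gave 10.81, 10.85 and 10.82 in wild-type and 9.15, 9.07 and 9.09 in knockout cells (log2FC -1.72, SE 0.06, adjusted p = 2.0e-08). For both genes the lowest wild-type array lay more than 1.5 log2 units above the highest knockout array. Sema4b fell by 0.99 (adjusted p = 6.3e-06), just under a fold-change of 2. Sema4a, Sema4d and Sema6a, with fold changes of -0.06, -0.01 and -0.07 on the log2 scale, did not pass (adjusted p between 0.57 and 0.97). The 95% confidence intervals of these 3 differences lay within -0.27 and 0.15. Sema4a and Sema6a were under the olfactory receptor level in both genotypes, and Sema4d was near it, with means of 5.85 in wild-type and 5.84 in knockout cells. A further probe set of Sema4d gave 0.06 (adjusted p = 0.51 over probe sets).

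Of the secreted class 3 semaphorins, 3 were lower, 2 were higher and Sema3d did not pass. Sema3c, known for its part in heart outflow and neural crest development, gave 7.62, 7.72 and 7.77 in wild-type and 6.85, 6.49 and 6.66 in knockout cells, with a log2FC of -1.04 (SE 0.09, adjusted p = 1.7e-05, limma). Sema3a, the ligand of the neuropilin-1 and plexin-A receptor, fell by 0.61 (adjusted p = 2.0e-04). Sema3e, which binds plexin-D1 without a neuropilin, fell by 0.25 (adjusted p = 0.021), and this call was lost on leaving out wild-type replicate 1, wild-type replicate 2 or knockout replicate 1 (adjusted p between 0.059 and 0.089). In the other direction, Sema3f, which acts mainly through neuropilin-2, had log2 values of 6.95, 6.92 and 6.85 in wild-type cells and 8.39, 8.71 and 8.39 in knockout cells. It rose by 1.59 (SE 0.09, adjusted p = 6.9e-07), and Sema3b rose by 0.59 (adjusted p = 2.5e-04). Sema3b and Sema3f, the class 3 genes that rose, are close together on chromosome 9 with 3 protein-coding genes between them, whereas Sema3a, Sema3c, Sema3d and Sema3e are all on chromosome 5. There Sema3d, the direct neighbour of Sema3a, gave 0.04 (adjusted p = 0.74) and was under the olfactory receptor level in both genotypes. Without knockout replicate 2, Sema3c had a log2FC of -0.95 and Sema4b of -1.01, so that these 2 genes changed places at the fold-change of 2.

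The listed semaphorin receptors were mostly lower. Of 6 listed plexins, 4 were lower, 1 was higher and Plxnb1 did not pass (log2FC -0.17, adjusted p = 0.14 from limma). Among measured plexins outside the list, Plxnb2 was lower, at a log2FC of -0.38 (adjusted p = 0.004, limma). Plxna3 and Plxnb3 did not pass, at log2FC values of 0.14 and 0.05 (adjusted p = 0.236 and 0.635, limma). Plxna4, a receptor of class 3 and class 6 semaphorins, had log2 values of 7.64, 7.82 and 7.57 in wild-type cells and 5.62, 5.79 and 5.39 in knockout cells. It fell by 2.08 (SE 0.11, adjusted p = 3.0e-07), to values under the olfactory receptor level on every knockout array, so that it was at least 3.66-fold lower. Plxna2 gave 8.16, 8.28 and 8.13 in wild-type and 6.68, 6.69 and 6.72 in knockout cells (log2FC -1.49, SE 0.06, adjusted p = 9.2e-08). Plxnd1, the receptor of semaphorin 3E, gave 9.56, 9.48 and 9.32 in wild-type and 7.83, 8.14 and 7.97 in knockout cells (log2FC -1.47, SE 0.09, adjusted p = 1.5e-06). Plxna4, Plxna2 and Plxnd1 did not overlap between genotypes, and all fell past a fold-change of 2. Plxna1 had a log2FC of -0.29 (adjusted p = 0.027), a call lost on leaving out any of wild-type replicates 1 and 2 and knockout replicates 1 and 3 (adjusted p between 0.063 and 0.11). Plxnc1, the plexin of semaphorin 7A, rose by 0.53 (adjusted p = 2.4e-04) but stayed under the olfactory receptor level in both genotypes, at 5.18 ± 0.08 (SD, n = 3) in wild-type and 5.70 ± 0.06 (SD, n = 3) in knockout cells.

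The neuropilins moved unequally. Nrp1, the co-receptor of semaphorin 3A and of VEGF, had log2 values of 10.23, 10.26 and 10.19 on wild-type arrays and 8.39, 8.06 and 8.31 on knockout arrays. It was lower on every knockout array, with a log2FC of -1.97 (SE 0.09, adjusted p = 1.1e-07, limma). Nrp2, the co-receptor of semaphorin 3F, gave 9.33, 9.48 and 9.41 in wild-type and 9.48, 9.51 and 9.47 in knockout cells, and the genotypes overlapped. Its log2FC was 0.08 with a 95% confidence interval of -0.06 to 0.22 (adjusted p = 0.40). Set beside their ligands, Sema3a fell with Nrp1, Sema3e and Sema3c fell with Plxnd1, Sema3f rose beside the value of 0.08 for Nrp2, and Sema7a fell while Plxnc1 rose.

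**Figure D2:**
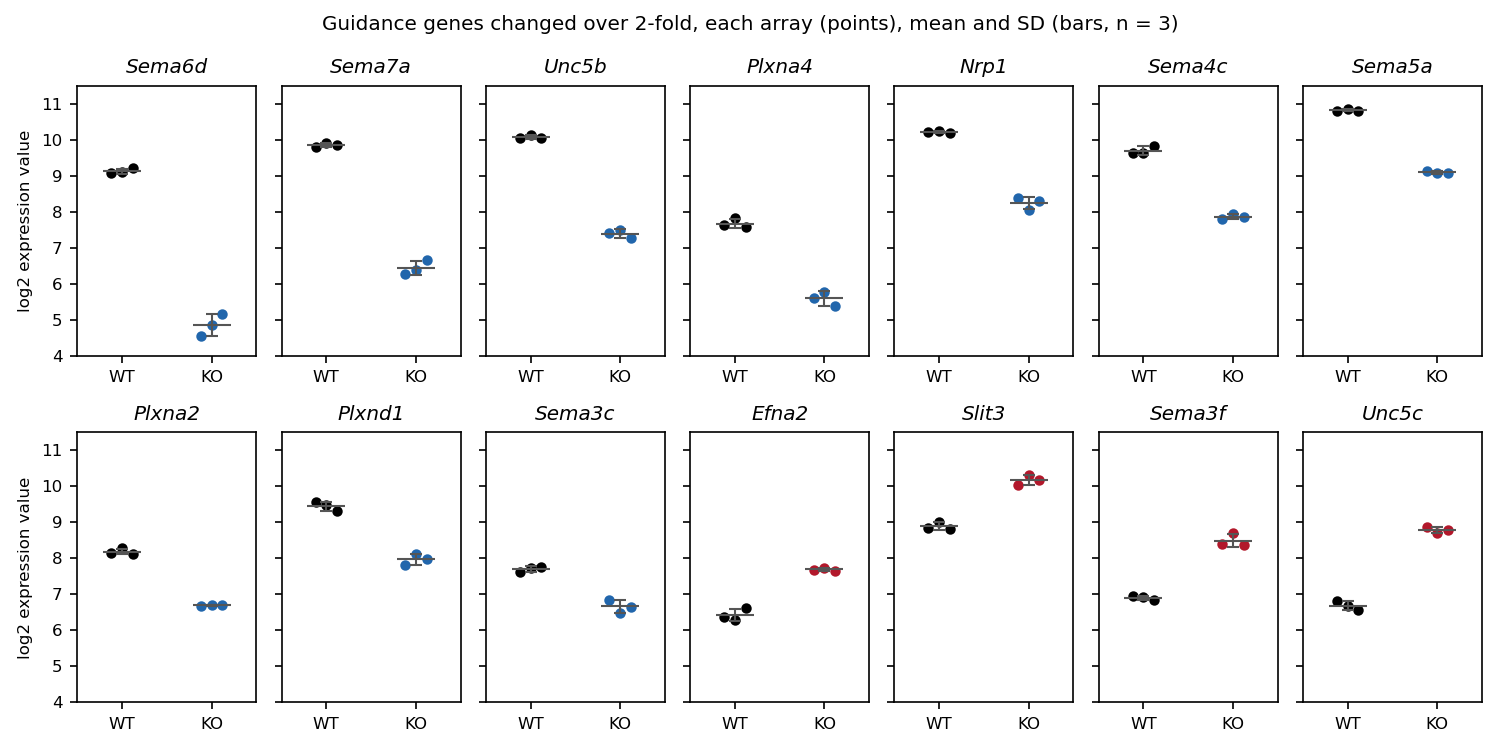
Log2 expression value on the y axis for each wild-type (WT, black) and H2AX knockout (KO, blue for lower and red for higher) array, for the 14 guidance genes past the test and a fold-change of 2, ordered from the largest fall to the largest rise, with the mean and SD of 3 arrays as bars. In each panel the genotypes do not overlap, from Sema6d at 9.08 to 9.21 against 4.56 to 5.16 to Unc5c at 6.58 to 6.81 against 8.71 to 8.87. Levels are not comparable between genes, since each probe set has its own response.

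Receptors of the Unc5 family changed in opposite directions. Unc5b, which mediates repulsion by netrin-1 and is also known in vessels, gave log2 values of 10.06, 10.14 and 10.05 in wild-type and 7.43, 7.51 and 7.26 in knockout cells. The log2FC was -2.68 (SE 0.08, adjusted p = 5.9e-09, limma). Unc5c, a receptor of the same family needed for axon repulsion in the brain, gave 6.81, 6.69 and 6.58 in wild-type and 8.87, 8.71 and 8.78 in knockout cells, a rise of 2.10 (SE 0.08, adjusted p = 3.3e-08). Every knockout array was below every wild-type array for Unc5b and above it for Unc5c. Their ligand netrin-1, Ntn1, fell by 0.60 (adjusted p = 1.3e-04), from 8.77 ± 0.07 (SD, n = 3) to 8.17 ± 0.09 (SD, n = 3). Ntn4, a netrin of basement membranes, had a log2FC of -0.14 (adjusted p = 0.16). Of the other netrin-1 receptors, named after their values were seen, Neo1 fell by 0.50 (adjusted p = 1.5e-04) and Dcc gave -0.13 (adjusted p = 0.28).

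Slit2 and Slit3 rose, and the 2 listed Robo receptors changed in opposite directions at low signal. Slit3, a secreted ligand expressed in mesenchyme, had log2 values of 8.85, 9.02 and 8.82 in wild-type cells and 10.04, 10.32 and 10.18 in knockout cells. The rise was 1.29 (SE 0.09, adjusted p = 2.2e-06, limma), with no overlap. Slit2 rose by 0.55 (adjusted p = 2.5e-04), and Slit1, a form best known in the nervous system, lay under the olfactory receptor level with a log2FC of 0.20 (adjusted p = 0.080, and 0.042 without wild-type replicate 1). Robo1 fell by 0.55 (adjusted p = 2.8e-04) and Robo2, its direct neighbour on chromosome 16 with no protein-coding gene between them, rose by 0.68 (adjusted p = 7.5e-05). On the wild-type arrays Robo1 gave 5.84, 5.82 and 5.73 and on the knockout arrays 5.18, 5.18 and 5.38. Robo2 went from 5.35, 5.46 and 5.42 to 6.17, 5.96 and 6.16, and so crossed the olfactory receptor level upward in knockout cells.

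The promoters of 5 genes that carry these changes are shown, namely 3 that fell (Sema7a, Nrp1 and the receptor Unc5b) and 2 that rose (Slit3 and the receptor Unc5c), each with a single start in the RefSeq table of build GRCm38.p6. Each run is the 250 bases before the start, 5′ to 3′ on the gene's own strand, and capitals mark matches on either strand to the motifs GGGCGG (the GC box), CCAAT (the CAAT box), TATAAA (the TATA box), TGACTCA (the AP-1 site) and TGACNNNGC (the core of the antioxidant response element). The windows are chr9:57939862-57940111 on the plus strand for Sema7a, chr8:128358823-128359072 on the plus strand for Nrp1, chr10:60831582-60831831 on the minus strand for Unc5b, chr3:141465314-141465563 on the plus strand for Unc5c and chr11:35121206-35121455 on the plus strand for Slit3.
Sema7a: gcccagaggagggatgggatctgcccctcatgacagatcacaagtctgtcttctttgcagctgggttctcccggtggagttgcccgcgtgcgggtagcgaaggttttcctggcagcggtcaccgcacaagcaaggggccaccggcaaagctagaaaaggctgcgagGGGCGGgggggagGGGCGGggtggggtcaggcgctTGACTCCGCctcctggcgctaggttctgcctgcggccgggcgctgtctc
Nrp1: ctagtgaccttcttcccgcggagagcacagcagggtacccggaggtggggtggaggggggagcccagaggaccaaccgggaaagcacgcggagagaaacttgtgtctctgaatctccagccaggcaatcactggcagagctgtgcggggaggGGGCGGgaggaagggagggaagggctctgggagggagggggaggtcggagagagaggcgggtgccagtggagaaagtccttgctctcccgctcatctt
Unc5b: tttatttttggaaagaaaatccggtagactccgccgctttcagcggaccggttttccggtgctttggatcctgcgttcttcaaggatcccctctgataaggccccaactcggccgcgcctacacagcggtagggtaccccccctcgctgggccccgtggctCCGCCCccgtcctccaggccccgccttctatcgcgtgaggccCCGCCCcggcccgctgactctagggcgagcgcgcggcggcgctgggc
Unc5c: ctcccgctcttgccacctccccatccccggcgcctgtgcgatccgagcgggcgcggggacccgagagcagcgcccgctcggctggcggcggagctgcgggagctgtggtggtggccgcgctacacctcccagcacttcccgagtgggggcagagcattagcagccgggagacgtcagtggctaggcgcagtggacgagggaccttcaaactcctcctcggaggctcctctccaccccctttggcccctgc
Slit3: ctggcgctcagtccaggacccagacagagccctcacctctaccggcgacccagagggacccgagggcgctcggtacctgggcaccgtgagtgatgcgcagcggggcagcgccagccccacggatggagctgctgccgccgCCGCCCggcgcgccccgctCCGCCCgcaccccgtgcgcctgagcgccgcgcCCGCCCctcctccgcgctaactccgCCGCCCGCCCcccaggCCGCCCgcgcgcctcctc
The GC box had 6 matches before Slit3, 2 before Unc5b, 2 before Sema7a, 1 before Nrp1 and 0 before Unc5c, and a pair of those before Slit3 overlap each other. The antioxidant core matched once, before Sema7a. The letters of the CAAT box, the TATA box and the AP-1 site are not in these windows. The table held 55 promoters of 42 of the 50 listed genes. Of these promoters 70.9% held the GC box against 32.7% of all 32851 promoters, 23.6% against 33.8% held the CAAT box, 3.64% against 12.4% the TATA box, 1.82% against 4.46% the AP-1 site and 10.9% against 10.2% the antioxidant core. The median GC content was 64.4% in promoters of guidance genes and 52.4% in all. Which start these cells use was not measured by the arrays.

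Ephrins changed less, with rises in Efna1, Efna2 and Efna5 of the A class and a fall in Efnb2 of the B class. Of the 5 A-class ephrins, 3 were higher and none was lower. Efna2 had log2 values of 6.37, 6.28 and 6.62 in wild-type cells and 7.69, 7.73 and 7.66 in knockout cells, a rise of 1.27 (SE 0.09, adjusted p = 2.5e-06, limma). Efna5, a repellent of retinal and cortical axons, rose by 0.76, from 9.40, 9.40 and 9.28 to 10.11, 10.16 and 10.09 (adjusted p = 1.0e-05). Efna1 rose by 0.47 (adjusted p = 0.0027), while Efna3 and Efna4, its neighbours on chromosome 3 with no other protein-coding gene among the 3, had log2FC values of 0.18 (adjusted p = 0.14, and 0.045 without wild-type replicate 3) and -0.14 (adjusted p = 0.13). In the B class, Efnb2, the arterial ligand of EphB4, gave 9.02, 9.23 and 9.08 in wild-type and 8.49, 8.47 and 8.50 in knockout cells, and fell by 0.63 (SE 0.07, adjusted p = 8.3e-05). The X-linked gene Efnb1 had a log2FC of 0.21 (adjusted p = 0.068, and 0.042 without knockout replicate 1), and Efnb3 of -0.05 (adjusted p = 0.68).

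Of 10 measured Eph receptors, 2 were higher, 1 was lower and 7 did not pass, and none passed a fold-change of 2. Ephb3, a receptor of B-class ephrins known from cell sorting in the gut, gave 7.84, 8.15 and 8.07 in wild-type and 8.69, 8.95 and 8.87 in knockout cells, a rise of 0.81 (SE 0.10, adjusted p = 1.3e-04, limma). Ephb4, the receptor of ephrin-B2, rose by 0.32 (adjusted p = 0.014), a call lost without knockout replicate 3 (adjusted p = 0.061), so that this ligand and receptor had changes of opposite sign. Epha3 fell by 0.83 (SE 0.13, adjusted p = 9.0e-04), with wild-type values of 5.29, 5.84 and 5.29 and knockout values of 4.60, 4.68 and 4.64. Wild-type replicate 2 alone was above the olfactory receptor level. Epha2, an EphA receptor of epithelia and fibroblasts, had a log2FC of -0.22 with a 95% confidence interval of -0.43 to -0.01 (adjusted p = 0.10, and 0.015 without wild-type replicate 1). Epha1, Epha4, Epha5, Epha7, Ephb1 and Ephb6 had log2FC values between -0.17 and 0.14 (adjusted p between 0.14 and 0.73), and a further probe set of Ephb1 gave 0.05. Of these receptors Epha1, Epha5, Epha7 and Ephb1 were under the olfactory receptor level in both genotypes.

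H2ax lies on chromosome 9, which also holds Ephb1, Sema3b, Sema3f, Sema7a and Plxnb1, and of these 5 genes 2 were higher, 1 was lower and 2 did not pass. Between Sema7a and H2ax there are 176 protein-coding genes, and between Sema3f and H2ax 566. Without the 5 genes, 10 guidance genes were higher and 17 were lower. Without overlap between the genotypes were 14 genes upward and 21 downward, together 35 of the 49, while 44.8% of all genes did not overlap (25.3% upward and 19.5% downward).

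Other genes of the same pathways were counted from a list of further ligands and receptors and a list of signalling genes. Of 33 measured ligands and receptors outside the 50 (Ntng2 was not analysed here), 5 rose, 6 fell and 22 did not pass, or 33.3% called against 33.4% of all genes, with a median log2FC of 0.03. Without wild-type replicate 1, wild-type replicate 2 or knockout replicate 2, 3 of these genes were higher in place of 5. The largest fall was in Rgmb, a repulsive guidance molecule and BMP co-receptor, at a log2FC of -1.39 (SE 0.07, adjusted p = 2.0e-07, limma). Flrt2, a ligand of Unc5 receptors, fell by 0.61 and Unc5a fell by 0.50, while Flrt3 rose by 0.74, Ntn3 by 0.55 and Sema6c by 0.37 (adjusted p between 6.8e-05 and 0.0026). Of 45 measured signalling genes (Pak1, Rock2 and Ptk2 were not analysed here), 11 rose, 18 fell and 16 did not pass, or 64.4% called, with a median log2FC of -0.04. Past a fold-change of 2 were 4 higher and 4 lower, together 17.8% against 5.3% of all genes. The signalling list was also chosen with earlier results of these data known, so its shares are a description. In at least 1 genotype 41 of the 45 were above the olfactory receptor level, as were 18 of the 33 ligands and receptors. Of all genes above this level 50.6% were called, and 8.73% passed a fold-change of 2 as well. Chn1, a GTPase-activating protein for Rac that acts behind EphA4, fell by 2.44 (adjusted p = 3.4e-08), Crmp1, a collapsin response mediator of semaphorin 3A signalling, fell by 2.25 (adjusted p = 3.2e-07) and Chn2 fell by 1.20 (adjusted p = 7.5e-06). The knockout means of these 3 genes lay under the olfactory receptor level, with bounds of at least 2.29-fold for Chn1, 3.36-fold for Crmp1 and 1.77-fold for Chn2. Ablim1, an actin-binding protein of netrin signalling, rose by 2.40 (adjusted p = 3.4e-07) from a wild-type mean under that level, or at least 4.35-fold. The Rac exchange factor Tiam1 rose by 1.37 (adjusted p = 4.6e-07) and the kinase Pak3 by 1.34 (adjusted p = 1.4e-06). The common effectors Rhoa and Rac1, named after their values were seen, had log2FC values of 0.005 (adjusted p = 0.97) and -0.04 (adjusted p = 0.73).

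**Figure D3:**
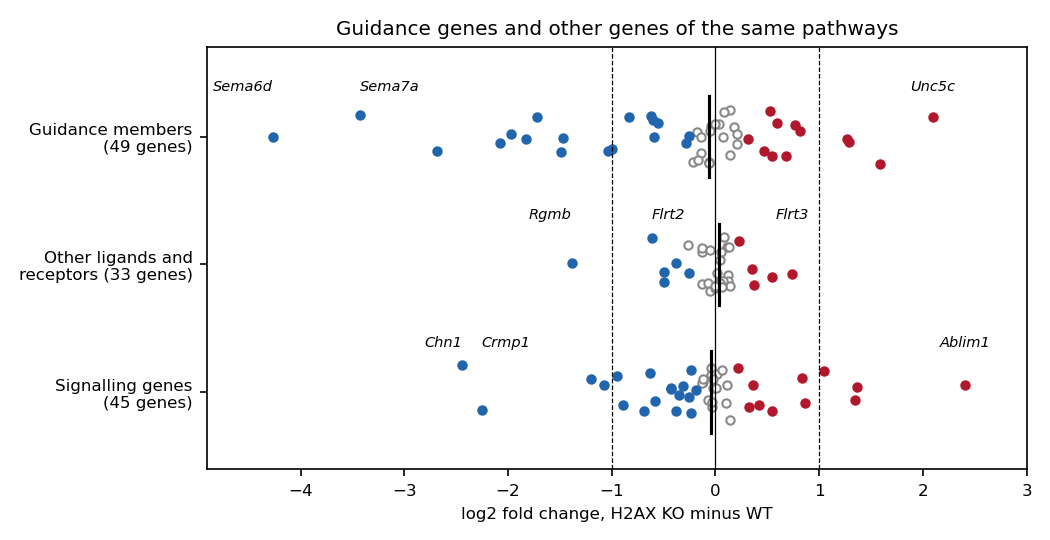
Knockout against wild-type log2FC on the x axis for 49 guidance genes, 33 other ligands and receptors and 45 signalling genes, with 1 point per gene spread vertically for clarity and a black line at each median. Filled points passed the test in limma (red higher, blue lower), and dashed lines mark a fold-change of 2. Past the dashed lines lie 14 guidance genes, 1 other ligand or receptor (Rgmb) and 8 signalling genes.

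The labelled cell type was checked with markers. All 12 fibroblast markers lay above the olfactory receptor level in at least 1 genotype, with a mean log2 value over the list of 10.07 to 10.17 on wild-type arrays and 10.26 to 10.30 on knockout arrays. Of them 5 were higher and 5 were lower, among them Thy1, which rose by 4.03 (adjusted p = 2.6e-10 from limma), Pdgfrb, which rose by 1.70, Dcn, which fell by 2.15, and Fap, which fell by 2.57 to a knockout mean under that level, or at least 2.32-fold. Nrp1, Plxnd1, Unc5b and Efnb2 are also known from vessels, and the endothelial markers had a mean of 5.36 to 5.37 on wild-type and 5.37 to 5.45 on knockout arrays, with 8 of 10, among them Pecam1, Cdh5, Kdr and Tek, not above the olfactory receptor level in either genotype. Of these 10 markers Flt1, a VEGF receptor, rose by 1.11 (adjusted p = 1.3e-05), while Cdh5 and Emcn were lower. Neuronal markers had a mean of 5.37 to 5.42 on wild-type and 5.50 to 5.56 on knockout arrays, and 7 of 10 were not above that level, among them Rbfox3, Snap25, Syt1 and Stmn2. Map2 rose by 1.73 (adjusted p = 7.0e-07), Tubb3 was also higher, and Elavl4 and Gap43 were lower. Of 6 measured Schwann cell and glial, 7 epithelial and 7 leukocyte markers, 0, 0 and 1 passed the test, the last being Cd68 at 0.29 (adjusted p = 0.025). The part of these markers in the changes of guidance genes was not tested.

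**Figure D4:**
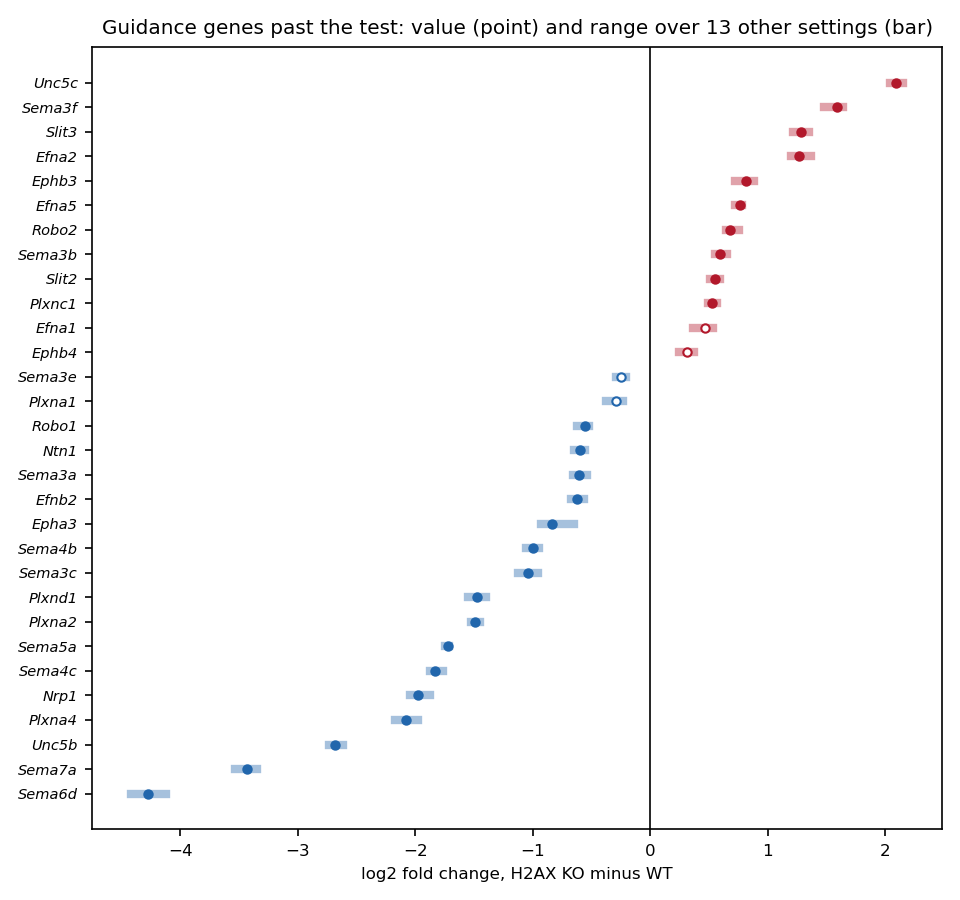
Knockout against wild-type log2FC on the x axis for the 30 guidance genes that passed the test, with the reported value as a point and the range over 13 other settings of the analysis as a bar. Filled points kept their call under every setting in which they were tested, and the open points Efna1, Ephb4, Sema3e and Plxna1 lost it under at least 1. No bar crosses 0.

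Across the 13 other settings of normalization, variance, probe set choice, filter and left-out arrays, 26 of the 30 guidance genes kept their call wherever they were tested. The call here is the direction at an adjusted p under 0.05 (limma, or the one-way test), without the fold threshold. All 14 genes past a fold-change of 2 kept it. At that fold-change Sema3c, with a log2FC of -1.13 to -0.95, and Sema4b, with -1.06 to -0.95, lay on either side by setting. The ranges of the log2FC were -4.42 to -4.12 for Sema6d, -3.54 to -3.35 for Sema7a, -2.74 to -2.61 for Unc5b and 2.04 to 2.16 for Unc5c.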

How the data were processed

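RNA from 3 wild-type and 3 H2AX knockout MEF arrays was analysed, grouped by the submitters' labels. The authors generated CHP files in Expression Console and used Partek (version 6.6) for normalization, and deposited log2 expression values of 35556 probe sets. For background, scaling, summarization and build, the method is not given in the sources used here, and values scaled in this way do not carry the amount of RNA per cell.

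Gene symbols came from the platform annotation for Mouse Gene 1.0 ST identifiers, which the deposited ones are, while the methods name the 2.0 version. Of them 21789 carried 1 symbol, 1621 carried several and 12146 were not listed, and only the first were used. Symbols were updated by gene identifier through a RefSeq table of assembly GRCm38.p6 (21698 matched). For genes with several probe sets the one with the highest mean was taken.

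Knockout was compared with wild type with limma (version 3.58.1, R version 4.3.3) without covariates, with Benjamini-Hochberg adjustment over 19938 genes, and calls at an adjusted p under 0.05, alone or with a fold-change above 2. With 3 arrays a genotype, the smallest exact permutation p is 0.1. The fit was tested on simulated data. The alternatives were a replicate block, each array left out, the one-way test of the methods, a trended and robust variance prior, quantile normalization, median centring, the mean of probe sets and filters on low genes. By rule, values on every array are given for genes past both thresholds and for ligand and receptor pairs with the largest fold in a family, and the 3 largest rises and falls of each pathway list and markers past both thresholds are named. The array values of Nrp2, Robo1, Robo2, Efna5, Efnb2, Ephb3 and Epha3, and the other markers named, were chosen after their values were seen. The genes and lists were chosen with earlier results of these data known. At most 0.0872% of values were identical between arrays of a genotype. No sign that replicate numbers pair the arrays was found, and 3 arrays a genotype are too few to decide it. The number of arrays limits the precision.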

Additional observations from a re-analysis of the deposited data

How the results depend on the processing

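With the replicate number as a block, 12 guidance genes were higher and 17 were lower, so that Sema3e alone lost its call (adjusted p = 0.055, limma), and with the methods' one-way test without moderation of the variance 10 were higher and 16 were lower. The deviations of arrays with the same number from their genotype means correlated at -0.29, -0.24 and 0.08, and 0 of 6 arrays correlated best with its own number. With 3 arrays a genotype, these values cannot show whether arrays of the same number were prepared together. When each array was left out in turn, 11 to 13 guidance genes were higher and 16 to 18 were lower, and past a fold-change of 2 there were 4 higher and 10 to 11 lower. At a fold-change over 1.5 in place of 2, 8 were higher, against 4, and 15 were lower, against 10. Among further ligands and receptors, the 5 higher ones became 3 with the block, 3 with the one-way test, 1 after dropping the lower 50% of genes by mean, where fewer genes were tested, and 3 to 4 with an array left out. Among genes that did not pass the test, Sema4d turned to 0.0293 with the mean of its probe sets and ranged from -0.0542 to 0.0212 with an array left out, Efnb3 from -0.13 to 0.0046 and Sema6a from -0.12 to 0.0241. After quantile normalization Epha2 passed the test (adjusted p = 0.0495 from limma), and with the one-way test Ephb4, Efna1, Sema3e and Plxna1 did not (adjusted p between 0.051 and 0.12). Signal under the olfactory receptor level in 1 genotype leaves a bound for the folds of Sema6d, Plxna4, Chn1, Chn2, Crmp1, Ablim1 and Fap.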
